A study of Mus musculus with 6 samples.

Results

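Transcripts of 9 genes of insulin and insulin-like growth factor (IGF) receptor signaling were followed in RNA-seq counts from mouse pancreatic islets held at high glucose or at low glucose. The genes were Igf2, Insr, Igf1r, Irs1, Irs2, Pik3r1, Akt2, Grb10 and Foxo1. They were chosen as rows of the deposited count table whose Ensembl ID carries one of these symbols in GENCODE M21, and all 9 of them were found among the 46983 genes of the table. All islets were wild type and were cultured in CMRL medium for 24 h, 3 libraries at high (stimulating) glucose and 3 at low (non-stimulating) glucose. Islets are the endocrine cell clusters of the pancreas and are made up mostly of insulin-secreting beta cells. Per the labels the cell type was given as beta cells or islets. The sources used here do not give the glucose concentrations, the strain, the age or how many animals each library stands for. Nor do the labels state whether the replicates are independent animals or cultures.

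Insulin and the IGFs bind a pair of closely related receptor tyrosine kinases, encoded by Insr and Igf1r. The receptors phosphorylate insulin receptor substrate (IRS) proteins, which recruit phosphoinositide 3-kinase (PI3K) through its regulatory subunits. PI3K activates the AKT kinases, and AKT in turn keeps FOXO transcription factors out of the nucleus. In beta cells this route is known for its part in growth, survival and compensation for insulin resistance, with Irs2 as a main substrate in mice.

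At high glucose Igf1r, the type 1 IGF receptor gene, rose 5.88-fold, while Igf2, Pik3r1 and Foxo1 fell. The insulin receptor gene Insr, the substrate genes Irs1 and Irs2, Akt2 and the receptor inhibitor gene Grb10 did not pass the test. So 1 of the 9 genes was higher and 3 were lower, against 13.3% of all 13996 tested genes called higher and 14.2% called lower (27.5% in either direction). With the replicate number as a block, Irs2 passed as higher and Insr as lower too, which gave 2 genes higher and 4 lower. With counts scaled to library totals, or without high glucose replicate 3 or low glucose replicate 1 or 2, 0 of the 9 genes were lower. With scaling on 20 islet hormone and secretory granule genes, or without high glucose replicate 2 or low glucose replicate 3, 1 was lower. All 9 genes passed the filter on low counts. Their median log2 fold change was -0.62, and that of all tested genes was 0.01. Here CPM are counts per 1000000 counts, scaled by the trimmed mean of M values (TMM), a log2 fold change is high over low glucose, and a call needs an edgeR adjusted p under 0.05 over all tested genes.

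The libraries differed in makeup as well as in glucose. Totals ranged from 14150726 to 15846235 counts at high glucose and from 10596020 to 12730985 at low glucose. All 9 beta-cell markers, Ins1 and Ins2 among them, were detected, and 4 of them fell. The 35 acinar markers of the digestive enzyme-secreting exocrine pancreas took 13.6% to 27.0% of the counts at high glucose and 53.2% to 70.1% at low glucose, with 3 amylase copies (Amy2a2, Amy2a3 and Amy2a4) at 0. Of the tested intestinal epithelium markers 8 of 8 fell, and of the duct markers 3 of 6 rose. Over all tested genes 13.3% were called higher and 14.2% lower. Scaled to library totals instead of by TMM, all genes together had a median of 1.16 (log2), so the directions given here are relative to TMM scaling. High glucose replicate 1 stood apart on the second principal component (13.6% of the variance), with 13.6% of its counts from acinar markers against 27.0% and 26.3% in replicates 2 and 3. In bulk RNA, fewer cells of a type and less RNA per cell cannot be told apart.

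The start regions of the substrate genes Irs1 and Irs2 are shown because the read ratio of this pair did not overlap between the groups, as given with the substrates, and because both hold a short element known from insulin-regulated genes. Other read ratios, that of Igf1r to Insr among them, did not overlap either, and neither Irs1 nor Irs2 passed the test. Each line is the 250 bases upstream of the RefSeq start site (RefSeq, GRCm38.p6), written 5′ to 3′ on the minus strand. For both genes the bases just after this start site matched no GENCODE M21 transcript of the gene. Positions below therefore hold for the RefSeq start only. Capitals mark the insulin response sequence CAAAACA, bound by FOXO factors in the promoters of several liver genes, which reads TGTTTTG where it lies on the other strand, and the E-box CACGTG, a site of basic helix-loop-helix factors.
Irs1, chr1:82291440-82291689: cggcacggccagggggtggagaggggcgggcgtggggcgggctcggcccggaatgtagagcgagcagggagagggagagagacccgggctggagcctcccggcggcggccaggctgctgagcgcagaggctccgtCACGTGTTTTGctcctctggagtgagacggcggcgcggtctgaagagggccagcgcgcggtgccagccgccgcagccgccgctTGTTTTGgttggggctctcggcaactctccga
Irs2, chr8:11008930-11009179: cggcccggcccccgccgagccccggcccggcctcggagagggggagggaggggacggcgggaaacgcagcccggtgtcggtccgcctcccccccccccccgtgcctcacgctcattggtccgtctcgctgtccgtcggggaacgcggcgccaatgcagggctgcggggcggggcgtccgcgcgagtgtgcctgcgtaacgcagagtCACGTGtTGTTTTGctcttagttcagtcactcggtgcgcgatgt
Irs1 held 2 insulin response sequences, 111 to 105 and 32 to 26 bases before the start site, and Irs2 held 1, 37 to 31 bases before it. Both genes held 1 E-box, 115 to 110 bases before the start in Irs1, where it overlaps the insulin response sequence, and 44 to 39 bases before it in Irs2, where a single base separates the elements. Searched on both strands of the 32851 RefSeq promoter windows of the same length, CAAAACA was found in 5.56%, CACGTG in 6.02% and both in 0.295%. Of the other members with an entry (8 of 9 genes matched, with 16 start sites in all), none held CAAAACA. The FOXO site TGTTTAC (3.17% of all windows) and the cyclic AMP response element TGACGTCA (1.55%) were found in no window of these 8 genes. These letter matches describe the sequence only.

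The window of Igf1r, the member with the largest fold change, and that of Foxo1, which fell, are given for comparison. Both lie on the plus strand, and capitals mark the GC box GGGCGG, which reads CCGCCC on the other strand and was found in 32.7% of all windows.
Igf1r, chr7:67952007-67952256: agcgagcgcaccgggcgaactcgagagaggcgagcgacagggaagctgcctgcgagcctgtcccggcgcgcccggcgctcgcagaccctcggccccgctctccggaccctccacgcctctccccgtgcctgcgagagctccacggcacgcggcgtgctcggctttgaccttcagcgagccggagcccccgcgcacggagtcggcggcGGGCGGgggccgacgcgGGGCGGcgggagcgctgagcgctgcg
Foxo1, chr3:52268087-52268336: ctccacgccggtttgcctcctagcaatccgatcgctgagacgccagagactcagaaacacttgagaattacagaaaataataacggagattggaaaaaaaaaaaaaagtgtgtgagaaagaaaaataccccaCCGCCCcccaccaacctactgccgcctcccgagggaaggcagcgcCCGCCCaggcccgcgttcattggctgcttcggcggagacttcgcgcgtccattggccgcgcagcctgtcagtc
Each of the 2 windows held 2 GC boxes, and the G and C content was 77.6% in Igf1r and 56.0% in Foxo1. The bases just after the RefSeq start matched a GENCODE M21 transcript of the gene for Foxo1 but not for Igf1r.

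Among the ligands, Igf2, an imprinted growth factor gene expressed from the paternal copy, had the lowest mean level per kilobase of the 9 genes in both groups. It lies on chromosome 7 (142650766 to 142666816, GRCm38). It had 1.95, 0.749 and 1.11 CPM in high glucose replicates 1 to 3, against 5.77, 2.83 and 3.93 CPM in low glucose replicates 1 to 3, from 15 to 55 and 17 to 69 counts. The highest high glucose library lay below the lowest low glucose library. Igf2 fell, with a log2 fold change of -1.72 ± 0.46 (SE) and an edgeR adjusted p of 0.0296. With library totals the log2 fold change was -0.60 and the call was lost, as it was without high glucose replicate 2 (-1.45) or 3 (-1.62) or without low glucose replicate 1 (-1.39), 2 (-1.91) or 3 (-1.74). Its exons share 62.8% of their length with Gm49394 on the same strand, a gene with no row in the count table. The table does hold rows of genes at 0 in every library, such as Igf2os, which overlaps Igf2 on the other strand. Gm49394 may thus have been absent from the annotation used for counting. That annotation is not named in the sources used here, so this was not tested and the Igf2 counts keep that uncertainty.

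The other ligand genes of the list were compared as context. Igf1, whose product is the main ligand of the IGF1 receptor, had 4.60, 9.59 and 10.5 CPM at high glucose, against 41.3, 78.8 and 86.5 CPM at low glucose. The groups were far apart, and Igf1 fell by 3.07 ± 0.40 on the log2 scale (edgeR adjusted p 0.00231). The call was kept under all 16 alternatives. Igf1 and Igf2 are widely expressed in stromal cells. The summed level of 7 stellate-cell and fibroblast markers was 23.2 to 238 CPM at high glucose and 234 to 317 CPM at low glucose, where 2 of 7 fell, none rose and none was at 0 over all libraries. In the same libraries the acinar markers summed to 76024 to 197397 CPM at high glucose and 567344 to 1249289 CPM at low glucose, and 29 of 32 tested fell. High glucose replicate 1 had the highest share of stellate-cell and fibroblast marker reads (0.0424%, against 0.0133% to 0.0252% at low glucose). Its acinar share was the lowest of all libraries (13.6%). That library had the lowest Igf1 level of all, and the highest Igf2 level within the high glucose group. The part of stromal or acinar cells in the falls of Igf1 and Igf2 was not tested. Neither insulin gene passed, with Ins1 at -0.43 ± 0.44 and Ins2 at -0.41 ± 0.51. Per Ins2 read Igf2 had 9.19e-05, 8.69e-05 and 0.000103 reads at high glucose, against 0.000286, 0.000184 and 0.000212 at low glucose. All 3 high glucose ratios were the lower ones.

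Of the receptor genes, Igf1r rose most. It lies on chromosome 7 (67952827 to 68233668). It had 99.5, 75.6 and 60.4 CPM at high glucose, against 14.1, 11.5 and 14.3 CPM at low glucose. The lowest high glucose library was over the highest low glucose library by a wide margin. The log2 fold change was 2.56 ± 0.22 with an edgeR adjusted p of 7.30e-04 and a 95% interval of 2.04 to 3.07. It passed under all 16 alternatives, between 2.35 without high glucose replicate 1 and 3.72 with library totals, where it was 2.56 above the median of all genes. Insr, on chromosome 8 (3122061 to 3279617), had 22.6, 40.0 and 35.2 CPM at high glucose, against 52.8, 51.4 and 49.8 CPM at low glucose. Its groups did not overlap either, and the low glucose libraries were close together. Its log2 fold change of -0.66 ± 0.22 had an edgeR adjusted p of 0.0580 and did not pass. Insr passed as lower with the replicate number as a block (-0.70, edgeR adjusted p 0.0380), without high glucose replicate 1 (-0.45, 0.0334), without high glucose replicate 2 (-0.82, 0.0490) and with DESeq2 (adjusted p 0.0336), and with library totals its value was 0.45.

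**Figure D1:**
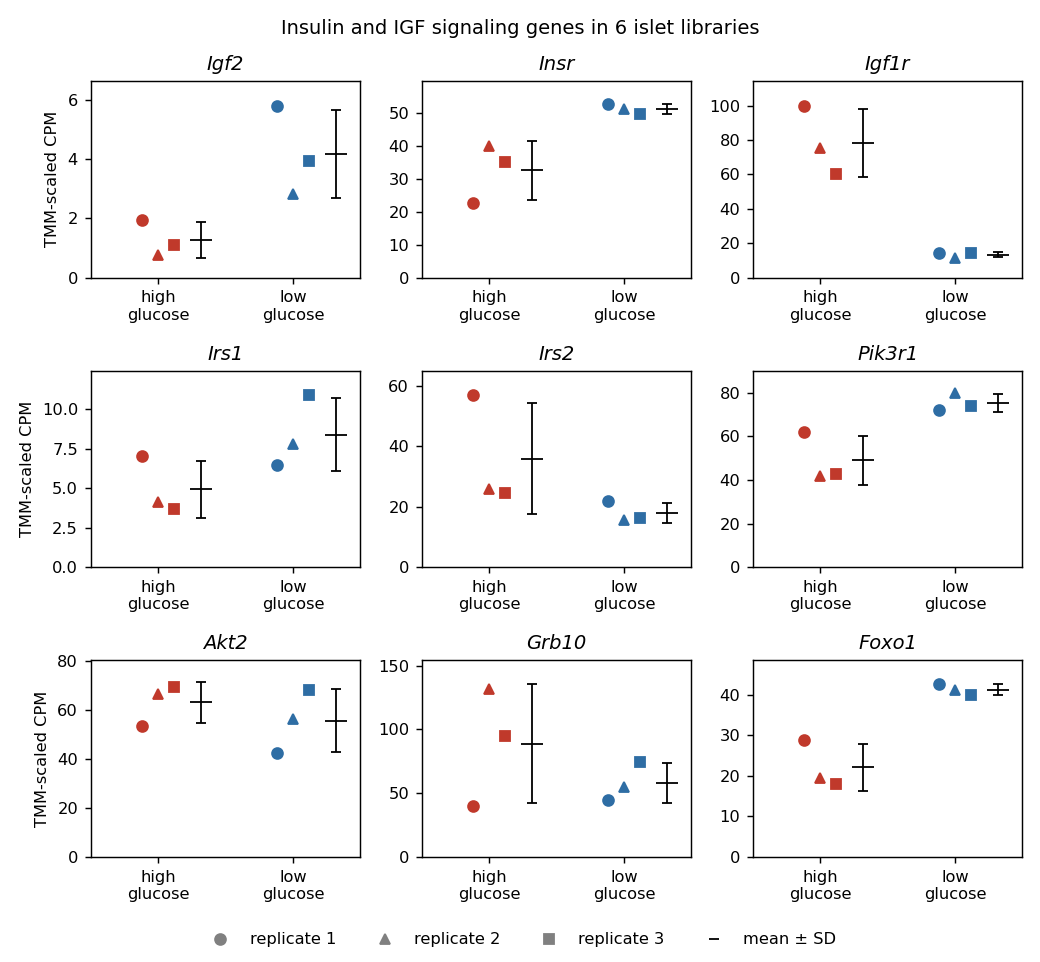
TMM-scaled CPM of the 9 genes in each library (vertical axes, linear from 0), high glucose in red and low glucose in blue, with marker shapes for replicates 1 to 3 and black bars for the mean and SD of 3 libraries. Igf1r lies between 60.4 and 99.5 CPM at high glucose and between 11.5 and 14.3 CPM at low glucose, whereas Akt2, Grb10 and Irs1 overlap between the groups.

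A ratio of 2 genes within a library does not depend on the scaling between libraries. Each library at high glucose had more Igf1r than Insr reads, with 4.40, 1.89 and 1.71 Igf1r reads per Insr read, against 0.268, 0.225 and 0.288 at low glucose. The groups did not overlap, and the geometric mean ratio at high glucose was 9.37 times that at low glucose (log2 difference 3.23, with SDs of 0.75 at high and 0.19 at low glucose, n = 3 each). The exact two-sided permutation test gave p = 0.1, the smallest that 3 against 3 libraries allow, and 0.14 adjusted over the 7 ratios computed. Without high glucose replicate 1 the log2 difference was 2.80.

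The remaining receptor genes moved in opposite directions. Igf2r, whose product takes up IGF2 for breakdown and does not signal through PI3K, had 141, 137 and 119 CPM at high glucose, against 72.6, 66.2 and 85.2 CPM at low glucose, and rose by 0.82 ± 0.16 (edgeR adjusted p 0.0111). That call was lost without low glucose replicate 2 (0.76). It was also lost when libraries were scaled on 20 islet hormone and secretory granule genes (1.09). Insrr, the orphan receptor gene of the insulin receptor family, had 14.4, 10.3 and 13.8 CPM at high glucose, against 165, 90.1 and 64.3 CPM at low glucose. It fell by 3.06 ± 0.36 on the log2 scale (edgeR adjusted p 0.00177) and passed under all 16 alternatives. No library of one group reached the other for either gene.

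Irs1 and Irs2 encode the substrates that link the receptors to PI3K. Irs2, on chromosome 8 (10984681 to 11008458), had 57.0, 26.0 and 24.5 CPM at high glucose, against 21.9, 15.8 and 16.2 CPM at low glucose. The high glucose libraries were all above the low glucose libraries, and replicate 1 was the highest in each group. The log2 fold change was 0.99 ± 0.35 with an edgeR adjusted p of 0.0721, so Irs2 did not pass. It passed as higher with the replicate block (0.91, edgeR adjusted p 0.0152), with DESeq2 (adjusted p 0.0349), with no filter (edgeR adjusted p 0.0248) and with library totals (2.16), and was 0.48 without high glucose replicate 1. Irs1, on chromosome 1 (82233101 to 82291416), had 7.0, 4.14 and 3.68 CPM at high glucose, against 6.44, 7.81 and 10.9 CPM at low glucose. High glucose replicate 1 lay among the low glucose libraries. Gm9747, a gene on the opposite strand that shares 30.9% of the Irs1 exonic length, had 0 counts in every library. As the strand setting is not known here, reads in the shared stretch may not have been counted for either gene. The level of Irs1, also per kilobase and per Irs2 read, is therefore uncertain. The log2 fold change of -0.75 ± 0.33 had an edgeR adjusted p of 0.133, or 0.51 with library totals and -1.08, where it passed (edgeR adjusted p 0.0216), without high glucose replicate 1.

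Set against each other, Irs1 reads per Irs2 read were 0.123, 0.160 and 0.151 at high glucose and 0.295, 0.497 and 0.671 at low glucose. Every high glucose ratio was below every low glucose ratio, and the log2 difference was -1.68 (exact permutation p = 0.1, the smallest possible). Of the 8 tested genes of the substrate and adaptor list, Irs1 and Irs2 included, 37.5% were called beside 27.5% of all tested genes: 3 rose and none fell. These were Shc1 (0.76 ± 0.16), whose product leads to Ras, the docking protein gene Dok1 (1.07 ± 0.26) and Sh2b2 (1.77 ± 0.38), an adaptor of the insulin receptor. Scaling on hormone and granule genes took away the calls of Shc1 and Dok1. Without low glucose replicate 2 none of the 3 passed. Dok1 was also lost without high glucose replicate 2 or 3 or low glucose replicate 1, and Sh2b2 without high glucose replicate 3. Irs3 and Irs4 were below the filter.

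**Figure D2:**
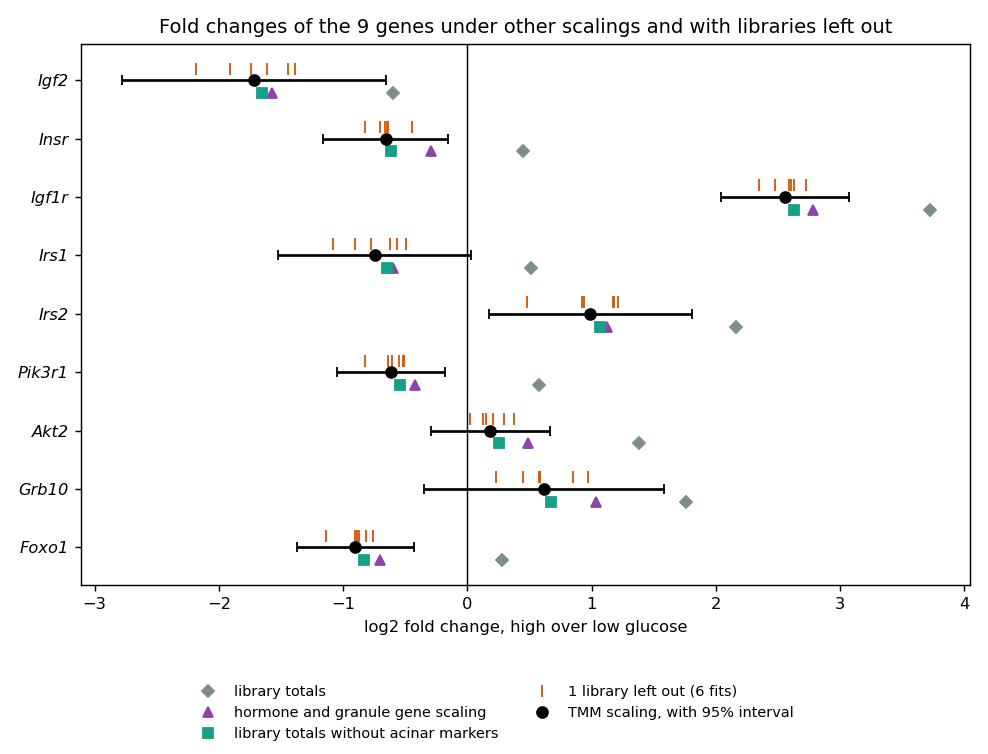
Log2 fold change of each gene, high over low glucose (horizontal axis), with TMM scaling and its 95% interval in black, 3 other scalings as colored symbols and 6 fits with 1 library left out as orange ticks. Igf1r stays between 2.35 and 3.72, while Insr, Irs1, Pik3r1 and Foxo1 are below 0 except with library totals.

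Pik3r1, which encodes the p85-alpha regulatory subunit of PI3K, lies on chromosome 13 (101680563 to 101768217). It had 62.0, 42.0 and 42.9 CPM at high glucose, against 71.9, 79.8 and 73.7 CPM at low glucose. The groups did not overlap, with high glucose replicate 1 nearest to the low glucose libraries. Pik3r1 fell by 0.62 ± 0.19 on the log2 scale (edgeR adjusted p 0.0449), although with library totals its value was 0.58. The call was lost with 9 of 16 alternatives, among them every fit that left out a library other than high glucose replicate 1 (-0.64 to -0.51). Per read of Pik3ca, a catalytic subunit gene, Pik3r1 had 1.35, 0.946 and 1.07 reads at high glucose, against 1.87, 2.35 and 1.71 at low glucose. These ratios did not overlap (log2 difference -0.82, exact permutation p = 0.1, the smallest possible). The other 5 PI3K subunit genes, Pik3r2, Pik3r3, Pik3ca, Pik3cb and Pik3cd, did not pass, with log2 fold changes between -0.31 and 0.58.

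Akt2, the AKT isoform gene tied most closely to glucose handling, lies on chromosome 7 (27591552 to 27640826). It had 53.6, 66.5 and 69.4 CPM at high glucose, against 42.6, 56.2 and 68.4 CPM at low glucose. The groups overlapped, and the log2 fold change of 0.18 ± 0.20 did not pass, with a 95% interval of -0.29 to 0.66. With library totals Akt2 passed as higher (1.38). Per Akt1 read Akt2 had 0.474, 0.477 and 0.548 reads at high glucose, against 0.320, 0.296 and 0.297 at low glucose. This ratio was higher in all 3 high glucose libraries (log2 difference 0.71, exact permutation p = 0.1, the smallest possible). Of the 7 genes of AKT and its activating kinases, 0 passed by edgeR, beside 27.5% of all tested genes. At an unadjusted edgeR p under 0.05 there were 2, Akt1 and Mtor, and 0 passed by DESeq2 or by limma-voom. Akt1 had 127 ± 13.3 CPM at high glucose and 185 ± 48.7 CPM at low glucose (SD, n = 3 each), passed as lower without low glucose replicate 1 (-0.73) and higher with library totals (0.67).

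**Figure D3:**
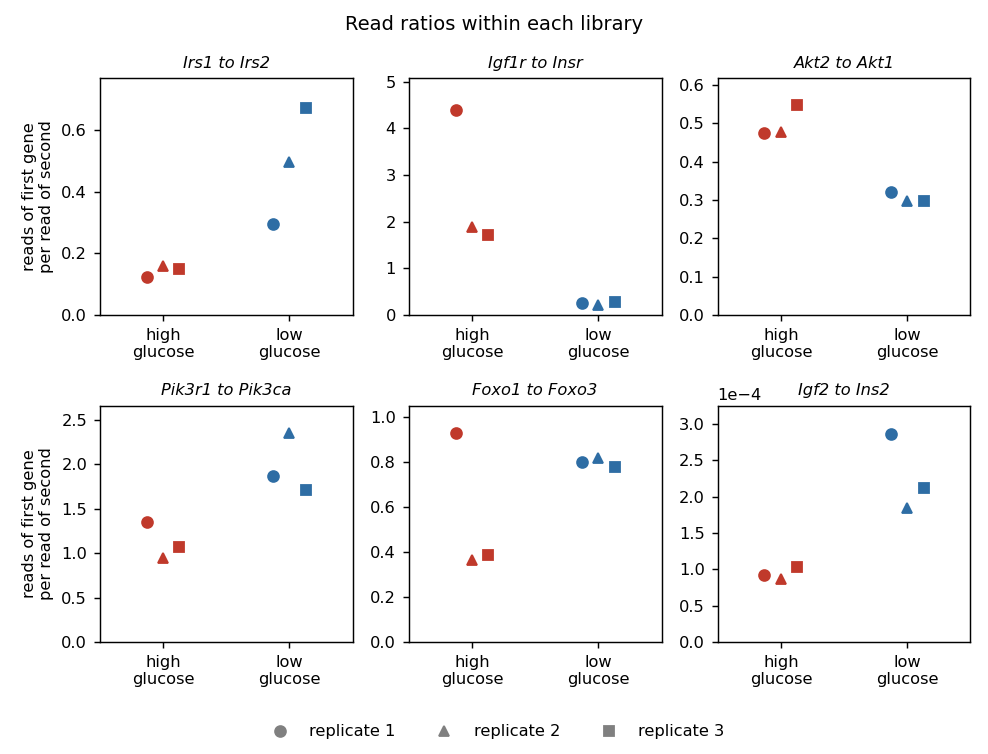
Reads of the first gene per read of the second in each library, for 6 pairs (linear axes from 0, not scaled by gene length), high glucose in red on the left and low glucose in blue on the right of each panel. Igf1r per Insr is 1.71 to 4.40 at high glucose and 0.225 to 0.288 at low glucose, and the Foxo1 to Foxo3 panel overlaps.

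Grb10 encodes an adaptor that binds the insulin and IGF1 receptors and dampens their signal, and the gene is imprinted. It lies on chromosome 11 (11930508 to 12038683). It had 39.7, 132 and 95.2 CPM at high glucose, against 44.4, 55.0 and 74.7 CPM at low glucose. High glucose replicate 1 was the lowest of all 6 libraries and replicates 2 and 3 the highest. The log2 fold change of 0.62 ± 0.42 did not pass (edgeR adjusted p 0.300), and without high glucose replicate 1 Grb10 passed as higher (0.97, edgeR adjusted p 0.0195). With library totals it passed too (1.76).

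Of the 16 tested inhibitors of the pathway, 4 rose and 1 fell, which is 31.2% called beside 27.5% of all tested genes. Trib3, whose product is a pseudokinase reported to bind AKT, had 23.3, 77.8 and 80.9 CPM at high glucose, against 3.60, 2.16 and 4.72 CPM at low glucose, a rise of 4.11 ± 0.54. Socs3, a cytokine-induced suppressor of receptor signaling, had 71.2, 46.3 and 63.5 CPM at high glucose, against 13.1, 8.15 and 21.4 CPM at low glucose, and rose by 2.09 ± 0.34. Ptpn2, a tyrosine phosphatase gene whose product acts on the insulin receptor, rose by 1.23 ± 0.18. These 3 genes passed under all 16 alternatives. Socs2, another suppressor of cytokine signaling gene, rose by 1.03 ± 0.32. Leaving out any library other than high glucose replicate 1 ended the call of Socs2, as did limma-voom and scaling on hormone and granule genes.

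Foxo1, the transcription factor gene at the end of the route, lies on chromosome 3 (52268336 to 52353221). It had 28.8, 19.6 and 17.9 CPM at high glucose, against 42.8, 41.1 and 40.1 CPM at low glucose. The low glucose libraries were within a few CPM of each other, and all high glucose libraries were below them. The antisense gene Gm20402, which shares 7.78% of the Foxo1 exonic length, had 0 to 3 counts per library. Foxo1 fell by 0.90 ± 0.20 on the log2 scale (edgeR adjusted p 0.0163), against 0.28 with library totals, which is 0.89 below the median of all genes in that fit. The call was lost with library totals, on the hormone and granule genes (-0.71) and without high glucose replicate 2 (-0.81) or 3 (-0.76) or low glucose replicate 1 (-0.87) or 2 (-0.89). Foxo3, Foxo4 and Foxo6 did not pass, at -0.25 ± 0.21, -0.55 ± 0.19 and -0.14 ± 0.29, although Foxo4 passed as lower with the replicate block (-0.56, edgeR adjusted p 0.0337). Per Foxo3 read, Foxo1 had 0.926, 0.366 and 0.388 reads at high glucose, against 0.797, 0.818 and 0.775 at low glucose. High glucose replicate 1 was above the low glucose libraries there and the other 2 below them (exact permutation p = 0.4).

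Genes known as FOXO targets in mouse or human cells went both ways: of 14 tested, 3 rose and 2 fell, with a median of -0.05 beside 0.01 for all genes. That is 35.7% called, beside 27.5% of all tested genes. Klf15, a transcription factor gene of fasting metabolism, had 5.27, 10.8 and 7.26 CPM at high glucose, against 50.8, 87.9 and 95.5 CPM at low glucose, and fell by 3.33 ± 0.35. The sestrin gene Sesn1, also a p53 target, fell by 2.36 ± 0.21. Bcl2l11, which encodes the cell-death protein BIM, rose by 1.42 ± 0.22, and the pseudokinase gene Trib1 rose by 1.20 ± 0.14. These 4 genes passed under all 16 alternatives, whereas Bcl6, a repressor gene (0.88 ± 0.27), was called under 8 of 16, with no library but high glucose replicate 1 left out, and not with the replicate block (0.87, edgeR adjusted p 0.0530). Of the FOXO targets outside the test, named after their values were seen, Igfbp1 had no count in any library, and Pck1 was below the filter with 2, 1 and 0 counts at high glucose and 122, 135 and 3 at low glucose.

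Among secreted modulators of the IGFs 1 of 8 tested genes rose and 3 fell, which is 50% called beside 27.5% of all tested genes. Igfbp5, a binding protein gene, had 132, 57.8 and 71.9 CPM at high glucose, against 31.9, 31.3 and 22.8 CPM at low glucose, and rose by 1.60 ± 0.32. Igfbp4 had 15.4, 2.25 and 4.74 CPM at high glucose, against 30.5, 33.9 and 44.8 CPM at low glucose, and fell by 2.27 ± 0.62. Igfbp6 fell by 2.44 ± 0.59 and Pappa2, whose product cuts IGF-binding proteins, fell by 1.39 ± 0.37. High glucose replicate 1, the highest of the high glucose libraries for these 4 genes, also held 0.0424% stellate and fibroblast marker reads, against 0.00317% and 0.00763% in replicates 2 and 3. Its shares of beta-cell markers (7.08% against 2.42% and 2.97%) and of macrophage and leukocyte markers (0.0281% against 0.00277% and 0.00579%) were the highest too. Its acinar share was the lowest (13.6% against 27.0% and 26.3%). A part of any of these cells was not tested. Without low glucose replicate 2 none of the 4 calls held, and those of Igfbp4, Igfbp6 and Pappa2 were also lost without low glucose replicate 1 or 3 and with library totals. Igfbp4 and Igfbp6 were further lost without high glucose replicate 3, and Pappa2 without high glucose replicate 2 and on the hormone and granule genes.

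**Figure D4:**
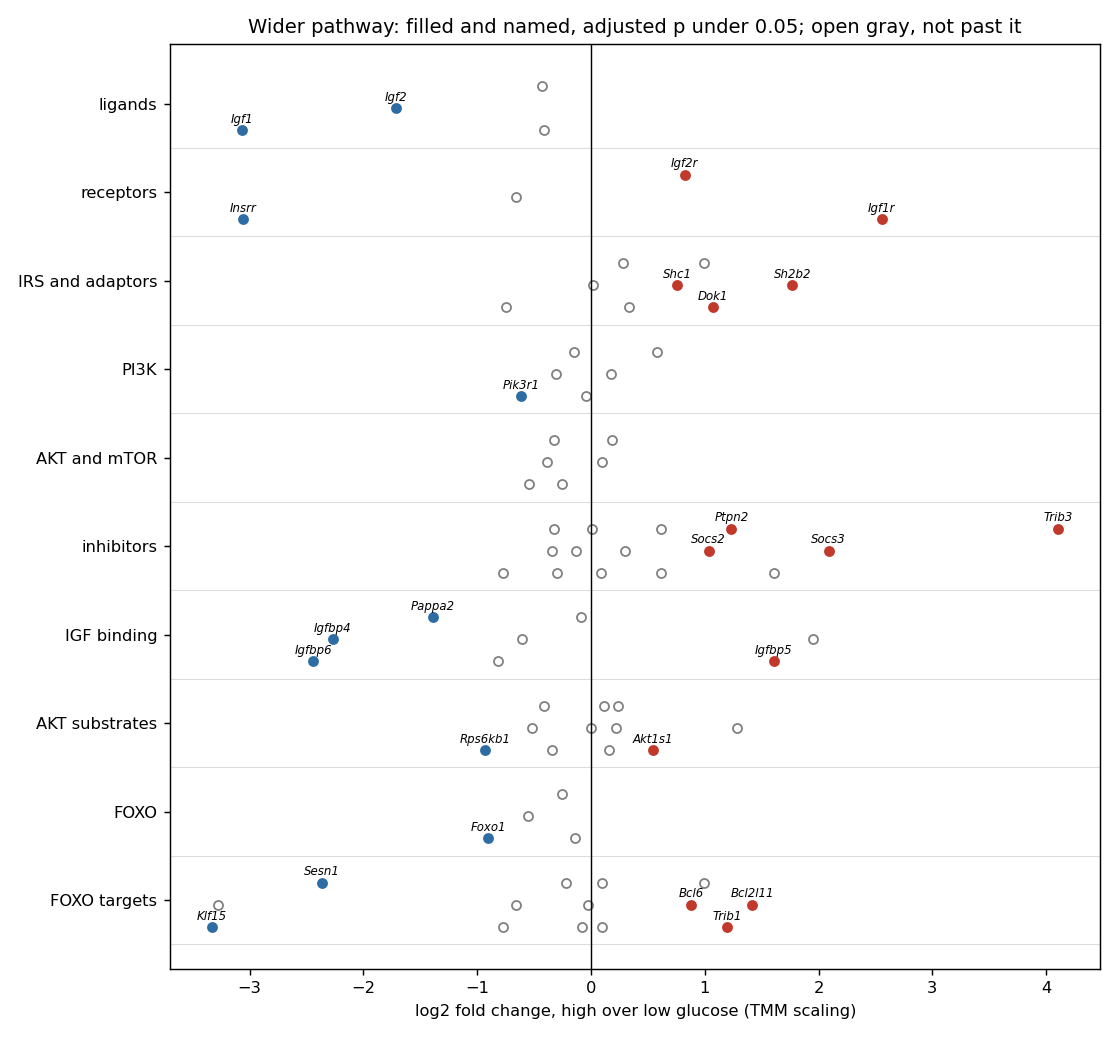
Log2 fold change of tested genes of the wider pathway list by role (horizontal axis, high over low glucose, TMM scaling), where filled and named points had an edgeR adjusted p under 0.05 and open points did not. The points run from -3.33 for Klf15 to 4.11 for Trib3, and no gene of the AKT class is filled.

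Over the whole list of 86 genes, 79 were tested, 14 rose and 12 fell, which is 32.9% called beside 27.5% of all tested genes. Without the 9 members, 13 of 70 rose and 9 fell (31.4%). The groups did not overlap for 40 of the 79 genes and for 6 of the 9 members, beside 45.9% of all tested genes. High glucose was above in 2 of those 6 (Igf1r and Irs2) and below in 4 (Insr, Igf2, Pik3r1 and Foxo1), beside 23.5% and 22.4% of all tested genes. The share called over the list was near that of all genes. Among AKT substrates and mTORC1 genes, 1 of 11 rose (Akt1s1, 0.55 ± 0.17) and 1 fell (Rps6kb1, the S6 kinase 1 gene, -0.93 ± 0.17, or 0.27 with library totals). Leaving out any library other than high glucose replicate 1 ended the call of Akt1s1. Scaling on hormone and granule genes ended the calls of both Akt1s1 and Rps6kb1, and library totals ended that of Rps6kb1.

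Scaled by exonic length, the order of the 9 genes differed between the groups. At high glucose Grb10 (9.78 ± 5.10 CPM per kilobase, SD, n = 3) and Akt2 (8.86 ± 1.18) led, followed by Irs2 (5.67 ± 2.90), Pik3r1 (4.86 ± 1.12) and Igf1r (4.67 ± 1.17), and each of these 5 overlapped its neighbour. Foxo1 (2.55 ± 0.68) and Insr (2.37 ± 0.66) overlapped each other below them, and Irs1 (0.540 ± 0.197) and Igf2 (0.222 ± 0.107) stood apart at the end. At low glucose Akt2 (7.82 ± 1.81), Pik3r1 (7.46 ± 0.41), Grb10 (6.38 ± 1.69) and Foxo1 (4.77 ± 0.16) overlapped in turn. Insr (3.74 ± 0.11) and Irs2 (2.84 ± 0.54) were each apart from their neighbours, and Irs1 (0.915 ± 0.247), Igf1r (0.793 ± 0.095) and Igf2 (0.730 ± 0.260) overlapped at the bottom. Igf1r was thus number 5 of the 9 genes at high glucose and number 8 at low glucose.

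Genes with a pattern most like that of Igf1r were ranked by Pearson correlation of log2 CPM over the 6 libraries, among 8181 named genes with a mean of at least 10 CPM. The closest were Trib1 (r = 0.997) and the ubiquitin ligase gene Rnf41 (0.996). For Foxo1 they were Oxct1, an enzyme gene of ketone body use (0.999), the zinc finger and homeobox gene Zhx1 (0.999) and Enpp2, the autotaxin gene (0.998). Of the ranked genes, 759 had an r over 0.9 with Igf1r and 630 with Foxo1, and the points share the 2 glucose groups and the scaling.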

How the data were processed

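Islet RNA was poly-A selected per the labels' protocols. The authors deposited raw read counts per gene, and STAR 2.7.3a, HTSeq 0.6.1p1 and GRCm38 are named in the submitters' processing notes. The sources used here do not name an annotation release or strand setting, so antisense reads cannot be told apart, and p-values measure the spread between libraries, which may be technical.

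Columns were matched to samples by name. Names, coordinates and exonic lengths came from GENCODE M21 (GRCm38), and 495 IDs with 0.0141% of counts had no name. The groups were tested by quasi-likelihood in edgeR 4.0.16 (R 4.3.3; TMM; filterByExpr minimum count 10, total 15; 13996 genes; Benjamini-Hochberg), with SE as the log2 fold change over the square root of F. Read ratios had 0.5 counts added and exact two-sided permutation tests. Library pairs within groups differed beyond sampling noise (chi-square per degree of freedom at least 17.1). The same pipeline was run on simulated counts with equal numbers of genes raised and lowered. Those counts held no shift in library makeup, so that run does not test the scaling between libraries.

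Members and lists were chosen with earlier results of these data known. All 9 members are named, with called genes of the pathway list and every gene of its ligand, receptor, IRS, PI3K, AKT and FOXO classes open to naming, and up to 3 genes most like the leading member in each direction. A few genes that the rule would name are not reported here. Same-numbered libraries deviated together from their group means (correlations 0.403, 0.257 and 0.254; other pairs -0.306 to 0.0748), so a second fit took the replicate number as a blocking term. Alternatives were other scalings, filters and tests (DESeq2 1.42.0, limma-voom with limma 3.58.1) and each library left out. Figures used matplotlib 3.10.9.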

Additional observations from a re-analysis of the deposited data

How the results depend on the processing

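Igf1r, Igf1, Insrr, Trib3, Socs3, Ptpn2, Klf15, Sesn1, Trib1 and Bcl2l11 kept their direction and call under all 16 alternatives. With library totals 8978 genes changed, 4 of the 9 members were higher and 0 lower, and 47 genes of the wider list were higher and 4 lower, where the median of all genes was 1.16. In that fit the sign turned for genes called with TMM scaling, Pik3r1 (0.58), Foxo1 (0.28) and Rps6kb1 (0.27) among them, none of which passed there. The sign also turned for genes not called with TMM scaling. Among those were the members Insr (0.45) and Irs1 (0.51), which did not pass, and Akt1 (0.67), which passed as higher. Scaled on hormone and granule genes, 2072 genes changed, 1 member was lower and 9 listed genes were higher. With no filter, with DESeq2 and with the replicate block 2 members were higher. The replicate block gave 4670 changed genes, lost 2 calls of the list, Bcl6 among them, and gained 8 of the 79 listed genes, Insr, Irs2 and Foxo4 among them, and changed no other call of the list. The robust fit, DESeq2 size factors in edgeR and the 1 CPM filter changed none. With 1 library left out, 1743 (without low glucose replicate 2) to 5685 (without high glucose replicate 1) genes changed, 1 to 2 members were higher and 0 to 5 lower, and 6 to 18 listed genes were higher and 5 to 20 lower. For the 7 ratios a move was measured against the larger group SD. Leaving out 1 of 3 libraries cannot move a group mean that far, so that check decides nothing. With 1 library left out, the log2 difference ran from 2.80 to 3.48 for Igf1r to Insr. For Irs1 to Irs2 it ran from -2.01 to -1.41. Igf2, with 15 to 69 counts per library, is limited by depth.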
